A study of Mus musculus with 6 samples.

Results

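The clustered histone genes were taken as the rows of the deposited count table whose symbol, after removal of a trailing transcript number, begins with Hist1h, Hist2h, Hist3h or Hist4h, which gave 69 of 30510 features. They comprised 6 H1, 20 H2A, 18 H2B, 12 H3 and 13 H4 genes. RNA sequencing compared the retina of wild-type DBA/2J (D2) mice, an inbred strain used as a model of inherited glaucoma, with that of wild-type C57BL/6J (B6) mice, the common reference strain, both aged 60 to 100 postnatal days, with 3 libraries per strain. Both retinas of an animal were collected, and libraries were made from total RNA with a strand-marking total RNA kit; the labels name no separate animals behind the 3 libraries, and a p-value here can reflect technical spread alone. In GENCODE M21 (mm10), 56 of the 69 genes lie on chromosome 13, 10 on chromosome 3, 2 on chromosome 11 and 1 on chromosome 6, and 67 are annotated as protein coding and 2 as pseudogenes. The name of the family fits position for nearly all of them: Hist4h4 on chromosome 6 stands alone, and Hist1h2al, a processed pseudogene at chr13:51202727-51203065, lies outside the groups of neighbouring histone genes.

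H2A, H2B, H3 and H4 form the core of the nucleosome, and H1 binds the linker DNA between nucleosomes. The clustered genes encode the replication-dependent histones, which are made mostly in S phase, and most of their mRNAs end in a stem-loop that the protein SLBP binds in place of a poly(A) tail. Nearly all neurons of the mature retina no longer divide, and replacement histones such as H3.3, made from genes outside the clusters, supply chromatin in such cells; some clustered genes also give polyadenylated mRNAs in differentiated cells.

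The stem-loop marks the family in sequence, so it was read from the GENCODE M21 transcripts, and it differed between histone classes. A 16-base element, made of GGNNCT, the loop TNTN and AGNNCC with the 6-base arms pairing throughout, was found on the transcribed strand of 46 of 69 members (66.7%) and of 9 of 21810 other protein-coding genes (0.0413%). The search covers annotated transcripts only, so an element beyond an annotated end is missed. Several members without an element have short annotations, such as 312 bases in Hist1h4k, 381 in Hist1h2bl and 411 in Hist1h3h, and both pseudogenes also lack one. Members with longer annotations lacked it too, such as Hist2h2be at 2620 bases, Hist1h2br at 2212 and Hist1h2bc at 1156. The stem began GGCTCT in the 4 H1, 11 H2A, 10 H2B and 9 H3 genes with an element, whereas the 12 H4 genes with one had GGCCCT in 10 and GGTCCT in 2. The following genes are the ones whose levels the results below turn on, with the element in capitals.
Hist1h4f stem-loop: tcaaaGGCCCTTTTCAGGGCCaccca
Hist1h4a stem-loop: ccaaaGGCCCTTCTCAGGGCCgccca
Hist4h4 stem-loop: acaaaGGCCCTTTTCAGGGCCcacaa
Hist1h4i stem-loop: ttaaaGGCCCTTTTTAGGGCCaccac
Hist1h4c stem-loop: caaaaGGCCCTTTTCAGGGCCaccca
Hist1h4m stem-loop: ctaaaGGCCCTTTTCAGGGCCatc
Hist1h2bj stem-loop: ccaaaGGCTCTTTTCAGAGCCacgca
Hist1h2bk stem-loop: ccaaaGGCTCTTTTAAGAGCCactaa
Hist1h2ag stem-loop: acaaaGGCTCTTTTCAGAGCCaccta
Hist3h2a stem-loop: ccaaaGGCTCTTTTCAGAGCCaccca
Hist1h1c stem-loop: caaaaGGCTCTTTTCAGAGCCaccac
Hist2h3c1 stem-loop: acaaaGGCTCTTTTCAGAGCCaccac
The commonest form, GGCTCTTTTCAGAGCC, occurred in 26 genes, and Hist1h4a was the 1 gene with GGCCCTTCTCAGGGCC. Genes called in both directions, at an adjusted p of 0.05 in the test given below, carried the element. Among the 22 genes with 150 or more annotated bases after it, 5 were higher and 9 lower in D2. Among the 24 with fewer, 4 were higher and 12 lower. Over all genes tested, 14.5% were higher and 15.3% lower. Members without an element were also called in both directions, such as Hist1h2bl (higher) and Hist1h2ak (lower).

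Library totals were 29417002 to 34478751 counts for D2 and 31305777 to 43719666 counts for B6. Levels are given as CPM, counts scaled to a common library size with the trimmed mean of M-values (TMM). Retinal markers summed to 36208 to 38040.3 CPM in D2 and 42131 to 43913 CPM in B6, with 1 of 10 markers higher and 2 lower in D2. The 4 markers of cycling cells, Mki67, Top2a, Cdk1 and Ccnb1, together reached only 0.633 to 0.707 CPM in D2 and 0.514 to 0.819 CPM in B6. The tissue label thus fitted its markers, and those of cycling cells were low in both strains. Erythroid markers summed to 112 to 228 CPM in D2 and 62.4 to 96.4 CPM in B6, with 3 of 4 higher in D2, and microglial markers to 21.2 to 22.1 CPM in D2 and 22.5 to 23.7 CPM in B6. Pigment epithelium (32.2 to 112 CPM in D2, 47.6 to 137 in B6) and lens markers (3.09 to 9.61 CPM in D2, 1.57 to 22.9 in B6) overlapped between strains with none called, and no marker was at 0 in all libraries. The part of these differences in the histone values was not tested.

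The clustered histone genes differed between the strains in both directions, and by class. H4 genes held the widest differences: in the counts Hist1h4f, Hist1h4a and Hist4h4 were 3.68, 3.22 and 3.01 times as high in D2 as in B6, while 7 other H4 genes were lower. In the authors' deposited table, Hist4h4 was also higher in D2, but Hist1h4f and Hist1h4a were lower. In the counts, 10 of 19 H2A genes were lower in D2, H2B genes were split, and 1 of 6 H1 and 4 of 12 H3 genes were called; differences between classes were not tested. In the authors' deposited table, 11 of 19 H2A, 14 of 18 H2B and 9 of 12 H3 genes passed. So did 12 of 13 H4 and 1 of 5 H1 genes, against 40.9% of all genes listed there. All of the H2B and H3 calls in that table were lower in D2. Of 68 members tested, 38 passed an adjusted p of 0.05 (quasi-likelihood test of edgeR, Benjamini-Hochberg adjusted over 18588 genes), 13 higher and 25 lower in D2, or 55.9%, against 29.7% of all genes tested. The shares in each direction over all genes were 14.5% higher and 15.3% lower, against 19.1% and 36.8% of the members. The median log2 fold change (D2 minus B6) was -0.10 over the members and 0.0046 over all genes tested. Most differences were small: the median size among the 38 was 0.40 on the log2 scale, and 4 members (Hist1h4f, Hist1h4a, Hist4h4 and Hist1h2bj) passed the test with a difference of 2-fold or more, which 4.81% of all genes did. The 3 D2 libraries lay wholly above the B6 libraries for 16 members and wholly below for 22, together 55.9% of those tested; over all genes the shares were 21.4% above, 20.9% below and 42.3% in all. Of the 38 calls, 27 held under each of 14 alternative fits, 11 of them higher and 16 lower. In whole-tissue RNA, fewer cells of a type and less RNA per cell cannot be told apart.

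**Figure D1:**
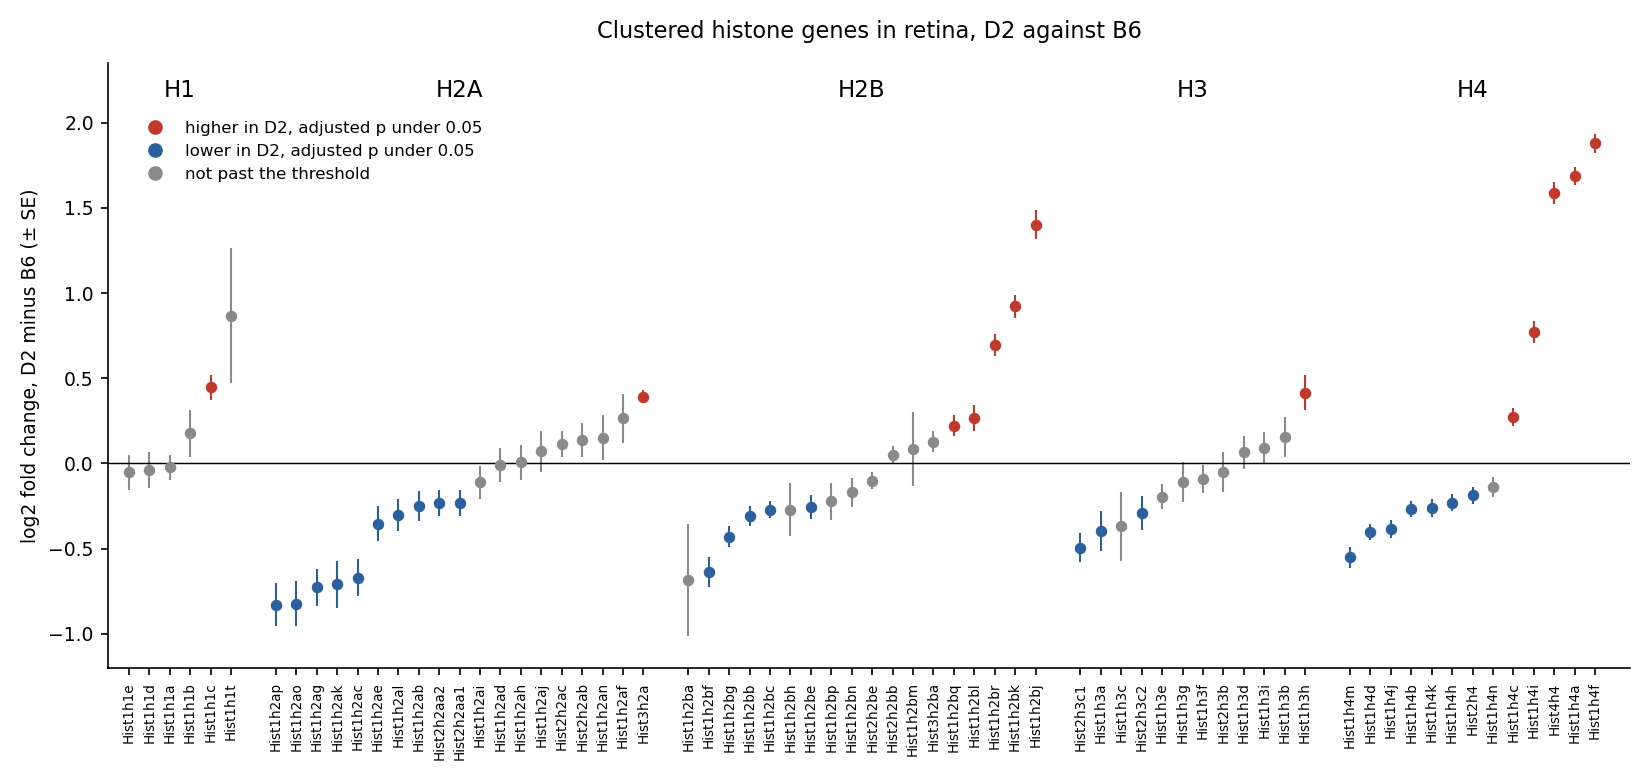
Each point is the log2 fold change, D2 minus B6, of one of the 68 tested clustered histone genes, with bars of 1 standard error, ordered within each class from lowest to highest; red and blue points passed an adjusted p of 0.05 in edgeR's quasi-likelihood test. The H4 genes run from -0.55 for Hist1h4m to 1.88 for Hist1h4f with 1 grey point, whereas most H1 and H3 points are grey. Over all genes tested, 29.7% passed.

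The direction of several rises depends on which of the 2 deposited tables is read, so the authors' own scores are given with them. In the authors' deposited table of scaled scores, with 1 mean per strain, 67 members were listed, and 47 had a false discovery rate under 0.05, against 40.9% of all genes listed there. Of those 47 in the authors' deposited table, 5 were higher and 42 lower in D2. The shares of all genes there in each direction were not counted, so this lean cannot be set against them. Among the 34 members called in both tables, 26 had the same direction and 8 (23.5%) the opposite one, whereas 13 of 5374 other genes called in both (0.242%) were opposite. All 8 were higher in D2 by the counts and lower in D2 by the authors' scores: Hist1h4a, Hist1h4f, Hist1h2bj, Hist1h2bk, Hist1h2bl, Hist1h2bq, Hist1h2br and Hist1h3h. The 22 members called lower in both tables, and Hist4h4, Hist1h4i, Hist3h2a and Hist1h1c, called higher in both, do not share this limit. By class, the opposite calls were 5 of 10 in H2B, 1 of 3 in H3 and 2 of 11 in H4, and 0 of 9 in H2A and 0 of 1 in H1. Across genes, which are not independent replicates, the log2 fold change from the counts and the score difference had a Pearson correlation of 0.329 over the 67 members and 0.972 over 17989 other genes. The 8 members with opposite signs had between 47.9% and 98.3% of their 31-base words in another annotated gene (median 82.0%), against 11.4% to 35.6% for the 4 members higher in both and 2.6% to 100.0% (median 68.85%) for the 22 lower in both. The sources used here do not say how reads that fit several copies were counted in either table, and the part of shared sequence in these opposite signs was not tested.

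**Figure D2:**
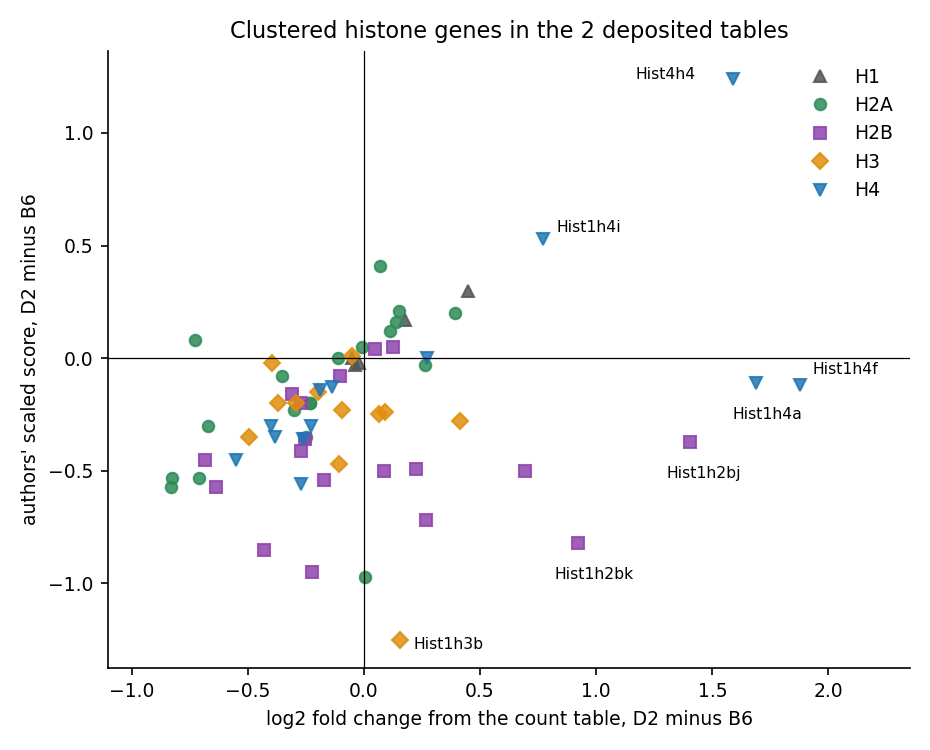
Each point is a clustered histone gene, with the log2 fold change (D2 minus B6) from the count table on the horizontal axis and the authors' scaled score of D2 minus that of B6 on the vertical axis; shapes mark the histone class. Hist4h4 and Hist1h4i are above 0 on both axes, while Hist1h4f, Hist1h4a, Hist1h2bj and Hist1h2bk lie right of 0 and below it.

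H4 genes all encode the same protein, the partner of H3 in the nucleosome core. Of 13 H4 genes, 12 passed the test, 5 higher and 7 lower in D2. The promoters of 3 of the higher genes and of the gene that was lowest relative to B6 follow, as the 250 bases before the RefSeq start in GRCm38.p6, each written in the direction of transcription with matches to CCAAT and TATAAA, searched on both strands, in capitals. They are chr13:23551669-23551918, minus strand for Hist1h4f, chr13:23761250-23761499, minus strand for Hist1h4a, chr6:136804432-136804681, minus strand for Hist4h4 and chr13:21811496-21811745, plus strand for Hist1h4m.
Hist1h4f promoter: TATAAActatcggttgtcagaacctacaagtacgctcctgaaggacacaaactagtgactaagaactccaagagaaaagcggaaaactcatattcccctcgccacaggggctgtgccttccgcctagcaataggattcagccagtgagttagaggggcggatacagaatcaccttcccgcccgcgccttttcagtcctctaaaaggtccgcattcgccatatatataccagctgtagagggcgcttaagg
Hist1h4a promoter: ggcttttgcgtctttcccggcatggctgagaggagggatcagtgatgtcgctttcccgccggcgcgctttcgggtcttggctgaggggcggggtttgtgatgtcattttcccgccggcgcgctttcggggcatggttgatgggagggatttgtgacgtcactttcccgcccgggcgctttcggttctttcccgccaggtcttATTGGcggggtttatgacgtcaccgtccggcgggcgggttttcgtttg
Hist4h4 promoter: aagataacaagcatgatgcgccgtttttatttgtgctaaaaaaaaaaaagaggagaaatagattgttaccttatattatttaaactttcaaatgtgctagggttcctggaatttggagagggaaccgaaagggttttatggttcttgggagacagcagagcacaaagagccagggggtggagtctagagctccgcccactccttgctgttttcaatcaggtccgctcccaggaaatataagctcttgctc
Hist1h4m promoter: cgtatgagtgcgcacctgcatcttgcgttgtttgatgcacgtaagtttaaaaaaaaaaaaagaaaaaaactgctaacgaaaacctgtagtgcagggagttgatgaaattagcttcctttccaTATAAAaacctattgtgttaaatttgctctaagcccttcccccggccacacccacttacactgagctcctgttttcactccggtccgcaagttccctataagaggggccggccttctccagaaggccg
Among 12 H4 promoters in the RefSeq table, 6 (50%) held TATAAA and 3 (25.0%) held CCAAT, against 12.4% and 33.8% of 32851 mouse promoters of the same length. CCAAT was in all 6 H1, all 17 H2A and all 16 H2B promoters and in 8 of 10 H3 promoters (80%). These matches describe the letters in the window, and in the 4 printed promoters they did not divide the higher genes from the lower one.

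Hist1h4f (chr13:23551258-23551648) was at 116, 114 and 134 CPM in the D2 libraries, against 33.5, 32.4 and 32.8 CPM in the B6 libraries. Its log2 fold change was 1.88 ± 0.06 (SE), or 3.68-fold, with an adjusted p of 2.89e-12 in edgeR's quasi-likelihood test. The authors' scores went the other way, at 8.90 in D2 and 9.02 in B6 (false discovery rate 0.00355 in the authors' deposited table). Per kilobase of exon it was the second highest member in D2, at 309.6 CPM per kb, against 84.2 CPM per kb in B6. Hist1h4a (chr13:23760692-23761230) had 147, 145 and 168 CPM in D2, against 47.3, 47.9 and 47.8 CPM in B6, a log2 fold change of 1.69 ± 0.05 (adjusted p 3.23e-12). Here too the authors' deposited table had the lower score in D2, 9.35 against 9.46 in B6 (false discovery rate 0.0276). In both genes the lowest D2 library was far above the highest B6 library.

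Hist4h4, the lone gene on chromosome 6 (chr6:136801553-136804415), was at 60.5, 60.4 and 72.7 CPM in D2, against 21.5, 21.3 and 21.6 CPM in B6. The log2 fold change was 1.59 ± 0.07 (3.01-fold, adjusted p 1.04e-10), and the authors' deposited table had the same direction, with 9.71 in D2 and 8.47 in B6 (false discovery rate 6.52e-161). It is the largest of the rises that both tables share, and 14.3% of its 31-base words occur in another gene. Hist1h4i (chr13:22040636-22041362) was also higher in both, at 53.1, 59.5 and 66.2 CPM in D2 against 35.3, 33.0 and 36.9 CPM in B6, with a log2 fold change of 0.77 ± 0.07 (adjusted p 4.02e-07) and authors' deposited table scores of 9.65 in D2 and 9.12 in B6. Hist1h4c, the most abundant member both in CPM and per kilobase of exon (440.0 CPM per kb in D2, 364 in B6), had 339.9, 341 and 401 CPM in D2 and 299, 296 and 302 CPM in B6. Its rise was small, 0.27 ± 0.05 (adjusted p 0.00112), and the authors' deposited table gave 11.4 in both strains (false discovery rate 0.094).

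The other direction was shared by 7 H4 genes in both tables. Hist1h4m fell most, with 38.0, 38.9 and 45.9 CPM in D2 against 59.8, 63.0 and 57.3 CPM in B6 (log2 fold change -0.55 ± 0.06, adjusted p 6.9e-06). Hist1h4d had 109.8, 114 and 127 CPM in D2 and 161, 150 and 153 CPM in B6 (-0.40 ± 0.05, adjusted p 1.23e-05). Hist1h4j had 25.8, 24.4 and 27.6 CPM in D2 and 34.5, 34.3 and 32.8 CPM in B6, a change of -0.38. In these 3 genes every D2 library was under every B6 library. Hist1h4b was at 32.1, 31.4 and 33.3 CPM in D2 and 36.9, 40.0 and 39.8 CPM in B6 (-0.27). Hist1h4k was at 43.6, 44.0 and 50.6 CPM in D2 and 56.3, 56.5 and 53.1 CPM in B6 (-0.26). Hist1h4h was at 80.5, 84.3 and 95.2 CPM in D2 and 103, 101 and 101 CPM in B6 (-0.23). Those falls were near -0.25 on the log2 scale, and their groups also did not overlap. Hist2h4, the H4 gene of the chromosome 3 cluster, had 26.5, 27.1 and 29.9 CPM in D2 and 31.9, 31.7 and 31.8 CPM in B6 (-0.19, adjusted p 0.0103); without D2 replicate 1 its adjusted p was 0.0596, within a range of 0.00334 to 0.0596 over the alternatives. Hist1h4n, with 50.3, 50.6 and 59.3 CPM in D2 and 59.0, 61.8 and 55.5 CPM in B6, did not pass (adjusted p 0.0986).

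**Figure D3:**
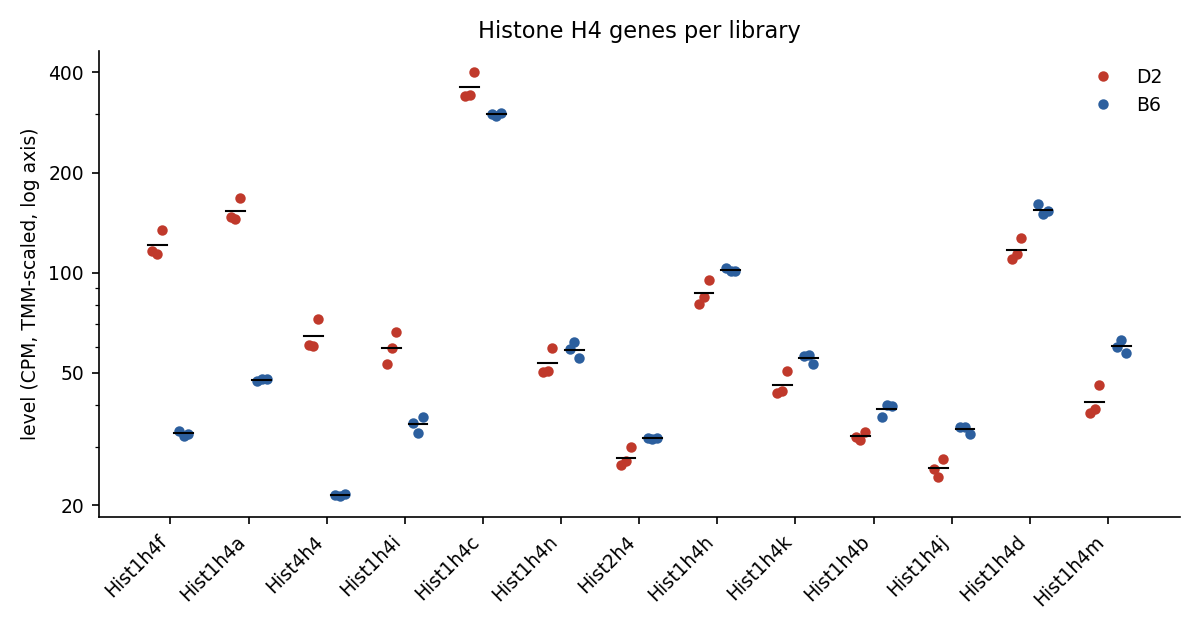
Points are the level of each H4 gene in each library in CPM on a log axis, D2 in red to the left and B6 in blue to the right, with a bar at each strain's mean, ordered by log2 fold change. Hist1h4f, Hist1h4a and Hist4h4 lie between 60.4 and 168 CPM in D2 and between 21.3 and 47.9 CPM in B6, and the B6 points of these genes are nearly on top of each other.

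Summed over H4 genes, the rises outweighed the falls. The 5 higher genes added up to 759 ± 71.2 CPM in D2 and 436 ± 5.32 CPM in B6 (SD, n = 3 each), and the 7 lower ones to 377 ± 28.6 CPM in D2 and 476 ± 6.82 CPM in B6. Hist1h4a supplied 12.9% of all H4 counts in D2 and 4.91% in B6, and Hist1h4f 10.2% in D2 and 3.39% in B6. Hist4h4 supplied 5.42% in D2 and 2.21% in B6. Hist1h4d went the other way, with 9.84% in D2 and 15.9% in B6, whereas Hist1h4c held 30.3% in D2 and 30.8% in B6. Hist1h4a and Hist1h4f, which enter the first of these sums, have the opposite sign in the authors' deposited table, and the part of read placement among copies in the H4 sum was not tested.

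H2B genes, which pair with H2A in the nucleosome, were split: 5 of 18 were higher and 5 lower in D2, and all 5 of the higher ones were lower in the authors' deposited table. Hist1h2bj (chr13:22043214-22043676) was at 15.6, 17 and 18.5 CPM in D2, against 6.45, 5.95 and 7.07 CPM in B6. The log2 fold change was 1.40 ± 0.08 (2.64-fold, adjusted p 7.1e-09 in edgeR's quasi-likelihood test), and the authors' scores were 7.23 in D2 and 7.60 in B6 (false discovery rate 0.0159 in the authors' deposited table). Hist1h2bk had 38.5, 41.9 and 45.4 CPM in D2 and 21.3, 21 and 24.5 CPM in B6 (0.92 ± 0.07, adjusted p 5.15e-08), with scores of 7.73 in D2 and 8.55 in B6 (false discovery rate 1.37e-50 in the authors' deposited table). In both genes the libraries of the strains were well apart in the counts, and the scores had the reverse order.

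Hist1h2br had 38.8, 42.6 and 46.5 CPM in D2 and 25.7, 25.4 and 28.2 CPM in B6 (0.69 ± 0.06, adjusted p 6.24e-07). Its near-copy Hist1h2bq, which shares 98.3% of its 31-base words with Hist1h2br, had 26.9, 28.7 and 31.9 CPM in D2 and 24.4, 24.3 and 26.7 CPM in B6 (0.22 ± 0.06, adjusted p 0.0133). The counts of the pair were nearly equal in B6, where Hist1h2br exceeded Hist1h2bq by 58, 48 and 48 counts, and apart in D2, where it did so by 344, 451 and 508 counts. Hist1h2bl had 11.7, 12.9 and 13 CPM in D2 and 10.3, 9.75 and 11.3 CPM in B6 (0.27 ± 0.08, adjusted p 0.0153). In the authors' deposited table all 3 genes were lower in D2: Hist1h2br had 8.16 in D2 and 8.66 in B6, Hist1h2bq 8.14 in D2 and 8.63 in B6, and Hist1h2bl 6.82 in D2 and 7.54 in B6. The Hist1h2bl call was lost without D2 replicate 2 (adjusted p 0.0591), D2 replicate 3 (0.0627) or B6 replicate 2 (0.076), in a range of 0.0061 to 0.076 over the alternatives, and that of Hist1h2bq without D2 replicate 3 (0.0941) or B6 replicate 2 (0.066), in a range of 0.00409 to 0.0941.

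The 5 lower H2B genes had the same direction in both tables. Hist1h2bf had 6.55, 5.75 and 6.94 CPM in D2 and 9.9, 9.56 and 10.5 CPM in B6 (-0.64 ± 0.09, adjusted p 5.68e-05). Hist1h2bg had 42.4, 46.0 and 51.2 CPM in D2 and 59.3, 62.4 and 67.2 CPM in B6 (-0.43 ± 0.06, adjusted p 6.79e-05). Hist1h2bb had 25.9, 30.6 and 31 CPM in D2 and 35.8, 35.5 and 37.4 CPM in B6 (-0.31). The D2 libraries lay under the B6 libraries in these 3 genes and in Hist1h2bc. Hist1h2bc, the highest H2B gene per kilobase of exon (116 CPM per kb in D2, 140.1 in B6), had 129, 129 and 144 CPM in D2 and 157, 156 and 173 CPM in B6 (-0.27 ± 0.05, adjusted p 0.000581). Hist1h2be, whose annotation overlaps Hist1h1e on the same strand, had 38.4, 42.8 and 48.4 CPM in D2 and 51.1, 48.3 and 55.9 CPM in B6 (-0.25, adjusted p 0.0131); its groups touched, and the adjusted p was 0.0573 without D2 replicate 1 and 0.0501 without B6 replicate 3, in a range of 0.000974 to 0.0573. Of the 8 H2B genes not called, Hist2h2bb was the highest per kilobase of exon (101 CPM per kb in D2, 97.4 in B6), at 35.2, 39.1 and 40.8 CPM in D2 and 38.1, 36.7 and 36.6 CPM in B6, and the testis histone gene Hist1h2ba was under 1 CPM in every library.

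H2A genes were mostly lower in D2, with 10 of 19 tested called lower and 1 higher. The exception, Hist3h2a on chromosome 11 (chr11:58954685-58956830), is the H2A gene with the most counts, with 248, 241 and 261 CPM in D2 against 196, 187 and 188 CPM in B6. It was higher in D2 by 0.39 ± 0.04 on the log2 scale (adjusted p 1.62e-06 in edgeR's quasi-likelihood test), and the authors' deposited table had 11.1 in D2 and 10.9 in B6 (false discovery rate 1.51e-41). Per kilobase of exon, at 116 CPM per kb in D2 and 88.8 in B6, it was below Hist2h2aa2, at 198 in D2 and 233 in B6. The gene shares 32.1% of its 31-base words with its neighbour Trim17. It supplied 43.9% of all H2A counts in D2 and 33.1% in B6.

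The lower H2A genes on chromosome 13 were mostly of low level. Hist1h2ap had 4.26, 4.58 and 5.7 CPM in D2 and 7.61, 8.48 and 10.0 CPM in B6 (-0.83 ± 0.12, adjusted p 0.000111). Its near-copy Hist1h2ao had 3.81, 4.18 and 5.21 CPM in D2 and 6.82, 7.61 and 9.23 CPM in B6 (-0.82 ± 0.13). These genes share 93.4% and 93.8% of their words, and their counts differed by 8.35% to 11.2%, so their falls are not separate observations. Hist1h2ag had 7.28, 8.15 and 9.7 CPM in D2 and 12.5, 13.2 and 16.3 CPM in B6 (-0.73 ± 0.11). Hist1h2ak had 3.81, 5.17 and 5.7 CPM in D2 and 7.15, 7.63 and 9.55 CPM in B6 (-0.71 ± 0.14). Hist1h2ac had 8.36, 11 and 11.7 CPM in D2 and 14.8, 16.6 and 18.7 CPM in B6 (-0.67 ± 0.11). In all 5 genes the highest D2 library was under the lowest B6 library, and of these 5, Hist1h2ag was not called in the authors' deposited table (7.32 in D2, 7.24 in B6).

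The remaining H2A falls were smaller and each was lost when some library was left out. Hist2h2aa1 was at 89.7, 103 and 119 CPM in D2, against 114, 122 and 131 CPM in B6. Hist2h2aa2 was at 90.3, 104 and 120 CPM in D2, against 115, 123 and 132 CPM in B6. These are the highest H2A genes per kilobase of exon, and both fell by 0.23 on the log2 scale, their counts differed by 0.553% to 0.865%, and their sequences are nearly the same, so they are best read as 1 measurement. The D2 and B6 libraries of this pair overlapped. Hist1h2ae had 7.28, 8.46 and 8.6 CPM in D2 and 9.06, 10.3 and 12.1 CPM in B6 (-0.35), and was not called in the authors' deposited table (7.23 in D2, 7.31 in B6, false discovery rate 0.308). Hist1h2al, the pseudogene away from the clusters, had 10.9, 13.3 and 15.2 CPM in D2 and 15.6, 17.1 and 16.1 CPM in B6 (-0.30). Hist1h2ab had 6.9, 7.32 and 7.57 CPM in D2 and 8.02, 8.45 and 9.58 CPM in B6 (-0.25). These 3 had groups that did not overlap, but by a small margin. Without D2 replicate 1, the adjusted p of edgeR's test was 0.143 for Hist2h2aa1, 0.138 for Hist2h2aa2, 0.0979 for Hist1h2al, 0.141 for Hist1h2ab and 0.0728 for Hist1h2ae. Without B6 replicate 3 it was 0.112 for Hist2h2aa1, 0.109 for Hist2h2aa2, 0.173 for Hist1h2ab and 0.0734 for Hist1h2ae. Without D2 replicate 2 it was 0.0916 for Hist2h2aa1, 0.0877 for Hist2h2aa2, 0.0562 for Hist1h2al and 0.0914 for Hist1h2ab. Each of these 5 calls thus depended on single libraries of both strains. Without B6 replicate 2, adjusted p was 0.0728 for Hist2h2aa1, 0.0712 for Hist2h2aa2, 0.0821 for Hist1h2al and 0.0708 for Hist1h2ab. Hist1h2ab also missed the threshold without D2 replicate 3 (0.0614). Over all alternatives the adjusted p ran from 0.000675 to 0.197 for Hist2h2aa1, from 0.000692 to 0.195 for Hist2h2aa2, from 0.00412 to 0.0734 for Hist1h2ae, from 0.00192 to 0.0979 for Hist1h2al and from 0.0312 to 0.173 for Hist1h2ab. The testis histone gene Hist1h2aa, at 0.0347 to 0.173 CPM in D2 and 0.0462 to 0.0963 CPM in B6, was too low to be tested.

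Many H2A and H2B genes lie head to head and share the DNA between their starts. There were 14 pairs of members with divergent starts within 1000 bases. Of these, 13 were H2A with H2B, at 176 to 306 bases apart, and the other was Hist1h2bh with Hist1h3f, at 660 bases. The pair Hist1h2ag and Hist1h2bj is shown because its log2 fold changes were farthest apart; the 250 bases before Hist1h2bj (chr13:22042948-22043197, plus strand in GRCm38.p6, from RefSeq) fill nearly all of the space between the genes, with CCAAT on either strand in capitals.
Hist1h2bj promoter: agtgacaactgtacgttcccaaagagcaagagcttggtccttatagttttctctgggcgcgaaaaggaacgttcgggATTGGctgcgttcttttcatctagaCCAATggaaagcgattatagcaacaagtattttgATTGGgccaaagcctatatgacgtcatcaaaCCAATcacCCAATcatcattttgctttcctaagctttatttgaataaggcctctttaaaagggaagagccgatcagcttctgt
The octamer ATTTGCAT, a motif known from H2B promoters, was in 6 of 16 H2B windows (37.5%) and 7 of 17 H2A windows (41.2%), against 1.6% of all promoters, but not in the window above. In 5 pairs both genes were called: in 2 they moved the same way (Hist1h2ae with Hist1h2bg, and Hist1h2ac with Hist1h2bc, all lower in D2), and in 3 the H2A gene was lower and the H2B gene higher in D2. Of these 3, the pairs Hist1h2ao with Hist1h2bq and Hist1h2ap with Hist1h2br are near-copies of each other and are not separate observations. The ratio of Hist1h2bj to Hist1h2ag counts was 2.14, 2.09 and 1.91 in D2, against 0.516, 0.45 and 0.433 in B6. For Hist1h2br to Hist1h2ap it was 9.11, 9.29 and 8.17 in D2, against 3.38, 3.0 and 2.81 in B6, and for Hist1h2bq to Hist1h2ao 7.05, 6.86 and 6.13 in D2, against 3.58, 3.19 and 2.89 in B6. The ratios of the strains did not overlap in these 3 pairs, but they did not overlap in most of the other pairs either. Among those others, the ratio was higher in D2 in some, such as Hist1h2bc to Hist1h2ac. It was lower in D2 in others, such as Hist1h2bf to Hist1h2ad. With 3 against 3 libraries a two-sided exact permutation test cannot give a p under 0.1. The H2B genes of the 3 pairs with opposite calls are among the 8 whose direction is opposite in the authors' deposited table. The divergence within those 3 pairs thus holds for the count table only.

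**Figure D4:**
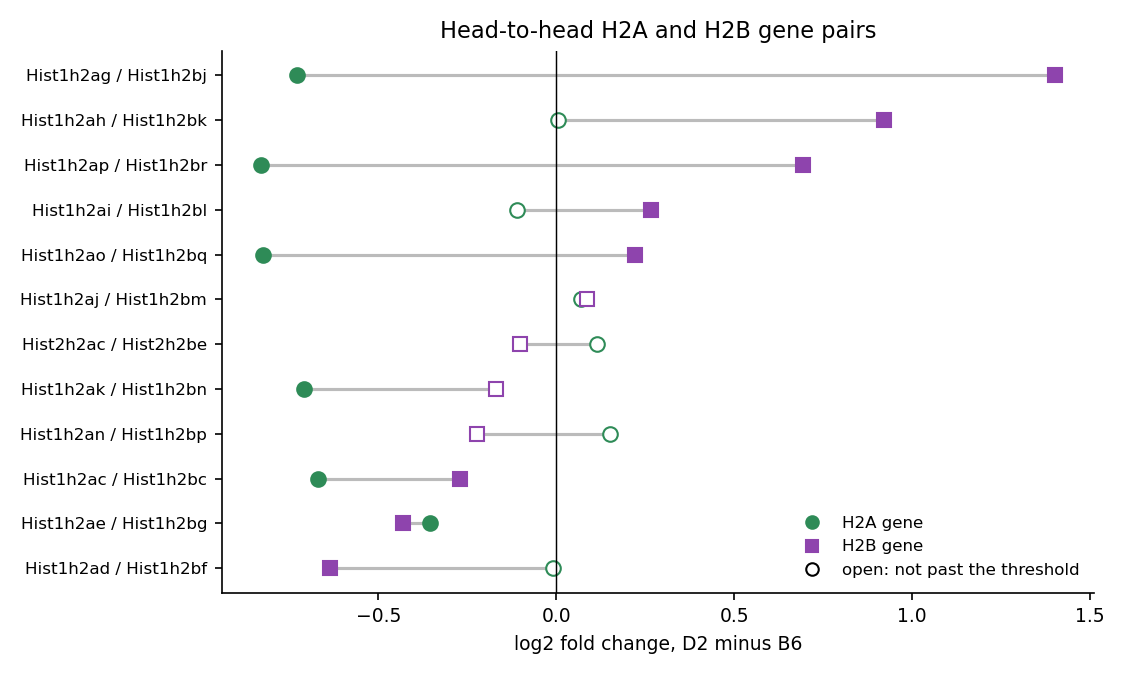
Each row is a head-to-head pair of an H2A gene (circle) and an H2B gene (square) with both tested, placed at its log2 fold change, D2 minus B6; filled marks passed the test and open ones did not. In the rows of Hist1h2bj, Hist1h2br and Hist1h2bq a filled square lies right of 0 and a filled circle left of it.

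H3 genes, which encode the replication-dependent H3 proteins, had the lowest summed CPM of the classes, and 8 of 12 did not pass the test. The share that passed, 33.3%, was near the 29.7% of all genes. Hist1h3h was the only H3 gene called higher, with 6.62, 8.18 and 7.8 CPM in D2 against 5.67, 5.18 and 6.21 CPM in B6 (0.42 ± 0.10, adjusted p 0.00701 in edgeR's quasi-likelihood test). The authors' deposited table had it lower in D2, 6.67 against 6.95 in B6 (false discovery rate 0.000738), and it shares 85.3% of its words with Hist1h3i, which did not pass (adjusted p 0.511). Hist2h3c1, in the chromosome 3 cluster, was lower, at 15.6, 14.5 and 17.1 CPM in D2 against 19.2, 22.6 and 25.1 CPM in B6 (-0.49 ± 0.09, adjusted p 0.000478), in both tables. Hist1h3a had 7.11, 9.81 and 10.6 CPM in D2 and 11.1, 12 and 13.5 CPM in B6 (-0.39, adjusted p 0.019), and was not called in the authors' deposited table (7.88 in D2, 7.9 in B6, false discovery rate 0.743). Hist2h3c2 had 11.8, 11.1 and 13.4 CPM in D2 and 12.9, 14.5 and 17.4 CPM in B6 (-0.29, adjusted p 0.0376). Both of these falls were near the threshold. The Hist1h3a call was lost without D2 replicate 1 (adjusted p 0.0675) or B6 replicate 3 (0.0661), in a range of 0.00244 to 0.0675 over the alternatives. That of Hist2h3c2 was lost without D2 replicate 1 (0.0895), D2 replicate 2 (0.15), B6 replicate 2 (0.0635) or B6 replicate 3 (0.153), in a range of 0.00647 to 0.153, and the libraries of the strains overlapped. Of the 3 H3 genes with the most counts, Hist2h3c1 was called and Hist1h3e and Hist1h3f were not: Hist1h3e had 20.8, 22.9 and 23.1 CPM in D2 and 23.4, 24.4 and 29.2 CPM in B6 (adjusted p 0.058), and Hist1h3f had 16.2, 18 and 20.5 CPM in D2 and 18.1, 19.1 and 21.6 CPM in B6 (adjusted p 0.435). Hist1h3e came under the threshold without B6 replicate 1 (adjusted p 0.0175), with the replicate number as a block (0.0237) and with no filter beyond 1 count (0.023), in a range of 0.0175 to 0.223. In the authors' deposited table, 9 of the 12 H3 genes passed, all lower in D2, among them 6 not called from the counts (Hist1h3b, Hist1h3d, Hist1h3e, Hist1h3f, Hist1h3g and Hist1h3i); the largest of these, Hist1h3b, had 5.52 in D2 and 6.77 in B6 there (false discovery rate 4.4e-29).

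H1 genes encode the linker histones, and 1 of 6 passed the test (16.7%, against 29.7% of all genes). Hist1h1c (chr13:23738808-23740367), the gene of H1.2, had 224, 276 and 294 CPM in D2 and 203, 181 and 200.1 CPM in B6. It was higher in D2 by 0.45 ± 0.07 on the log2 scale (adjusted p 0.000302), and by the authors' deposited table as well (11.2 in D2, 10.9 in B6, false discovery rate 2.14e-13). Its share of H1 counts was 64.2% in D2 and 56.1% in B6. Hist1h1e, the gene of H1.4, had 75.8, 100.4 and 112 CPM in D2 and 112, 94.8 and 91.8 CPM in B6 (adjusted p 0.754). Hist1h1a, the gene of H1.1, had 24.9, 26.9 and 31.1 CPM in D2 and 30.3, 27.0 and 26.9 CPM in B6 (adjusted p 0.852). In both the libraries of the strains overlapped widely. Hist1h1t, the testis linker histone, was under 1 CPM in every library. The median H1 gene had 3.8% of its 31-base words in any other annotated gene. The share was 11.4% for Hist1h1c and 34.7% for Hist1h1e, of whose words 24.5% occur in the overlapping Hist1h2be.

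Summed over a class, only H4 had libraries that did not overlap between the strains. The H4 sum was 1123, 1135 and 1310.2 CPM in D2 and 979, 969 and 966 CPM in B6, 1.23 times as high in D2 with no overlap. It includes Hist1h4a, with a mean of 153 CPM in D2 and 47.7 CPM in B6, and Hist1h4f, with 121 CPM in D2 and 32.9 CPM in B6. Both genes are lower in D2 in the authors' deposited table. With both left out, the H4 sums of the strains overlap: D2 replicate 1 lies under every B6 library and D2 replicate 3 above them. The H1 sum was 345, 430.4 and 464 CPM in D2 and 373, 326 and 343 CPM in B6 (1.19 times as high in D2), and without Hist1h1c it was 0.972 times as high in D2 as in B6. The H2A sum was 571 ± 48.9 CPM in D2 and 576 ± 27.3 CPM in B6, the H2B sum 513 ± 38.1 CPM in D2 and 526 ± 29.0 CPM in B6, and the H3 sum 113 ± 9.45 CPM in D2 and 129 ± 12.4 CPM in B6 (SD, n = 3 each). Without Hist3h2a the H2A sum was 0.832 times as high in D2 as in B6. D2 replicate 1 was the lowest D2 library in every class, and where a read was counted for more than 1 copy it enters these sums more than once. All 69 genes together made up 2576, 2747 and 3074 CPM in D2 and 2537, 2495 and 2616 CPM in B6.

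**Figure D5:**
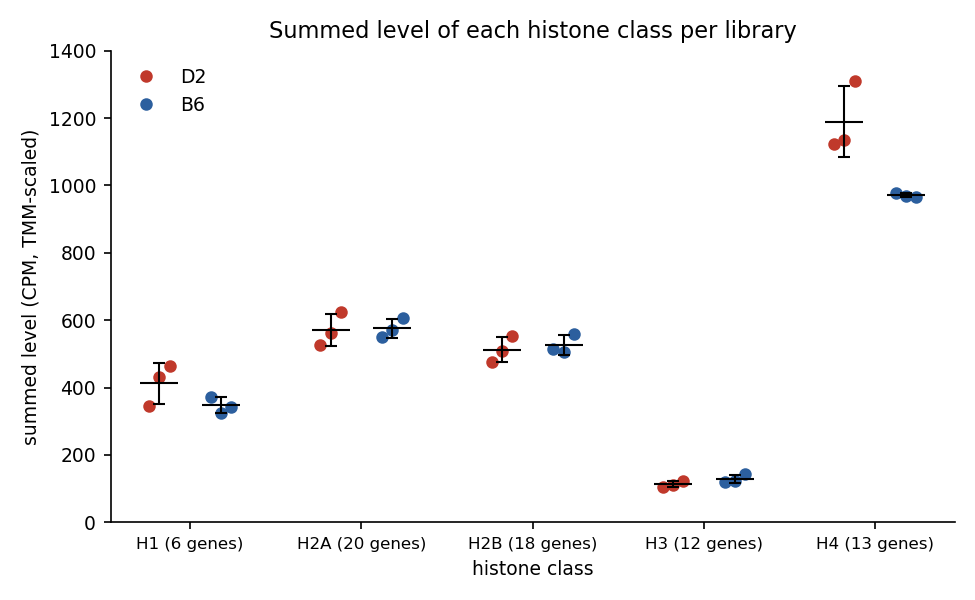
Points are the summed level of all genes of a class in each library in CPM, D2 in red and B6 in blue, with the mean and SD of 3 libraries in black. The H4 points of D2, at 1123 to 1310.2 CPM, lie above those of B6, at 966 to 979 CPM, and the points of the other classes overlap. The H4 sums include Hist1h4a and Hist1h4f, whose direction is opposite in the authors' deposited table, and with both left out the sums of the strains overlap.

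Many members share sequence with other genes. Of the 69, 44 have at least 50% of their 31-base words in another annotated gene, and the median was 61.9%; for 5 genes it was 100%. Besides the pairs above, Hist1h4m and Hist1h4n share 91.7% and 85.2% of their words: Hist1h4n exceeded Hist1h4m by 355, 381 and 464 counts in D2, and in B6 it was under Hist1h4m, with differences of -34, -51 and -57 counts. The strains thus differed in how counts were divided within near-identical pairs, as with Hist1h2bq and Hist1h2br, and not in the same way in every pair, since the counts of Hist2h2aa1 and Hist2h2aa2 differed by at most 0.865% in each of the 6 libraries.

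Position gave no single direction. In the chromosome 13 stretch at 22035164 to 22043676 (8.51 kb), 3 of 5 members were higher (Hist1h2bk, Hist1h4i and Hist1h2bj) and 1 was lower in D2. The stretch at 21715763 to 21837530 held 19 members, of which 4 were higher and 6 lower, and that at 23531050 to 23764406 held 29, of which 4 were higher and 12 lower. Over all genes, 14.5% were higher and 15.3% lower in D2. The rises in these chromosome 13 stretches include all 8 members whose direction is opposite in the authors' deposited table. On chromosome 3, between 96219865 and 96270132, 5 of 10 members were lower and 0 higher, where 15.3% of all genes were lower. Those 5 include the near-identical Hist2h2aa1 and Hist2h2aa2, and of the 5 calls only that of Hist2h3c1 held under each of the 14 alternatives. These counts use stretches split at gaps of over 100 kb, and genes within a stretch share sequence and are not independent.

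Histone genes outside the clusters include those of the replacement variants. Of 13 listed, 12 were tested, and 3 were higher and 0 lower in D2 (25.0%, against 29.7% of all genes), and the 3 rises were 0.18 to 0.21 on the log2 scale. H3f3b, an H3.3 gene and the one of this list with the most counts, had 949.5, 1017 and 1098 CPM in D2 and 935, 885 and 849 CPM in B6 (log2 fold change 0.20 ± 0.05, adjusted p 0.0108), a call that was lost without D2 replicate 3 (adjusted p 0.0663, the top of a range from 0.0021). H3f3a, the other H3.3 gene, had 597, 589.8 and 602 CPM in D2 and 550.2, 527 and 498 CPM in B6 (0.18 ± 0.04, adjusted p 0.00335). H1f0, the linker histone of differentiated cells, had 86.1, 86.2 and 91.6 CPM in D2 and 80.1, 75.6 and 71.9 CPM in B6 (0.21 ± 0.04, adjusted p 0.00167). In these genes each D2 library exceeded each B6 library. The 9 others, among them H2afz, H2afx and Cenpa, did not pass.

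Factors that make histone mRNA showed small differences. Of 18 genes of histone transcription, 3′ end processing and decay, 2 were higher and 5 lower in D2 (38.9%, against 29.7% of all genes). Lsm11, a subunit of the U7 particle that cuts histone pre-mRNA, had 42.3, 44.9 and 42 CPM in D2 and 36.0, 37.7 and 38.1 CPM in B6 (0.21 ± 0.05, adjusted p 0.0022). Coil, which encodes coilin of Cajal bodies, had 24.4, 21.4 and 24.5 CPM in D2 and 27.4, 27.7 and 28.1 CPM in B6 (-0.24 ± 0.06, adjusted p 0.00363). Eri1, the exonuclease that trims the histone stem-loop end, had 25.8, 24.5 and 25.8 CPM in D2 and 28.3, 29.5 and 29.9 CPM in B6 (-0.20 ± 0.05, adjusted p 0.00428). The strains did not overlap in these 3 genes. The other calls were Cpsf2, higher, and Npat, Upf1 and Ncbp2, lower, each within 0.14 on the log2 scale and named after their values were seen. Slbp, the stem-loop binding protein itself, was at 32.3, 29.6 and 33.4 CPM in D2 and 31.3, 31.7 and 32.8 CPM in B6 and did not pass (adjusted p 0.949), nor did the genes of the list with the most counts, Srrt (0.0868) and Sympk (0.347).

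Genes of S phase and mitosis are active in dividing cells. Of 22 listed, 17 were tested, 1 was higher and 3 were lower in D2 (23.5%, near the 29.7% of all genes). Mcm6, a subunit of the replicative helicase, had 1.91, 1.97 and 1.84 CPM in D2 and 6.8, 7.08 and 8.04 CPM in B6 (-1.93 ± 0.12, adjusted p 7.98e-09), while Mcm3, Mcm4, Mcm5 and Mcm7 of the same complex did not pass. Ccna2, cyclin A2, had 23.3, 24.6 and 24.0 CPM in D2 and 30.9, 31.7 and 32.7 CPM in B6 (-0.41 ± 0.05, adjusted p 8.07e-06). Mcm2 had 8.11, 8.8 and 9.12 CPM in D2 and 10.2, 10.4 and 11.1 CPM in B6 (-0.28 ± 0.08, adjusted p 0.0127). The 3 falls thus belong to genes with all D2 libraries under all B6 libraries, though Mcm2 missed the threshold without D2 replicate 1 (adjusted p 0.0577, the top of a range from 0.00965). E2f1, named after its values were seen, was the gene called higher, at 0.971, 0.953 and 0.921 CPM in D2 and 0.624, 0.409 and 0.514 CPM in B6 (0.87 ± 0.25, adjusted p 0.0143), and missed it without B6 replicate 2 (0.0816, the top of a range from 0.0129). Pcna and Rrm1, with the most counts of the list, did not pass (adjusted p 0.99 and 0.172), and Mki67, Top2a, Ccnb1, Cdk1 and Rrm2 were too low to be tested.

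Histone chaperones carry histones to and from DNA, and 2 of 18 were higher and 3 lower in D2 (27.8%, near the 29.7% of all genes). Hjurp, the chaperone of the centromeric H3 variant, had 21.6, 21.6 and 22.3 CPM in D2 and 44.3, 44.1 and 42.8 CPM in B6 (-1.0 ± 0.04, adjusted p 1.91e-10). Asf1b, which carries H3 with H4, had 1.84, 1.72 and 2.5 CPM in D2 and 3.47, 3.56 and 3.79 CPM in B6 (-0.82 ± 0.15, adjusted p 0.000692). Supt16, a subunit of the FACT complex, had 170.5, 189 and 174 CPM in D2 and 203, 206 and 204 CPM in B6 (-0.20 ± 0.04, adjusted p 0.0011). In all 3 the D2 libraries lay under the B6 libraries. Nasp and Ssrp1, named after their values were seen, were the 2 called higher, and Atrx and Nap1l1, with the most counts of the list, did not pass (adjusted p 0.732 and 0.566).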

How the data were processed

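Retinal total RNA of 3 D2 and 3 B6 libraries was sequenced. The authors deposited whole-number counts per gene for all libraries, and a second table of scaled scores per strain with p-values (a false discovery rate). Per the submitters' processing notes, FastQC, STAR, SAMtools and edgeR were used with genome mm10, which is the genome of C57BL/6J; how strand and reads with several map positions were treated was not given in the sources used here. Counts of 18588 of 30510 features that passed filterByExpr were fitted with edgeR 4.0.16 (TMM, quasi-likelihood test, strain as the only term, Benjamini-Hochberg over all tested genes, threshold 0.05) in R 4.3.3. The fit was tested on simulated data with 50 genes changed at each size. It called 26 of those changed 1.2-fold, 38 at 1.5-fold, 44 at 2-fold and 50 at 4-fold, and 4 unchanged genes. A gene not called can thus still differ by a small amount. Fold changes are D2 minus B6. Members are the rows matching the symbol rule; members and gene lists were chosen with earlier results of these data known. All called members, the 3 with the most counts per class, and, for other lists, the 3 lowest adjusted p among the calls and the 2 genes with the most counts are named. Gene positions and shared 31-base words are from GENCODE M21, promoters from RefSeq (61 members matched). Alternatives were other scalings, DESeq2 1.42.0, limma-voom (limma 3.58.1), filters, a replicate block and each library left out. Counts limit precision: 3 counts are about 0.1 CPM.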

Additional observations from a re-analysis of the deposited data

How the results depend on the processing

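The members called numbered 38 in the main test, 35 to 39 under other scalings, filters and tools (DESeq2 35, limma-voom 36) and 29 to 40 with a library left out, lowest without D2 replicate 1. No called member changed sign, and 11 of the 38 calls were lost under at least 1 alternative. Of the named members not called, Hist1h1a and Hist1h1e changed sign without D2 replicate 1 or B6 replicate 1. Genes called over the whole table ranged from 4502 to 5171 with a library left out. Calls ranged from 2 to 3 among histone genes outside the clusters, 6 to 7 among processing genes, 3 to 4 among S phase genes and 4 to 5 among chaperones. Class sums of D2 over B6 with a library left out, an alternative chosen after seeing the data, were 1.12 to 1.29 for H1, 0.944 to 1.03 for H2A, 0.936 to 1.01 for H2B, 0.841 to 0.932 for H3 and 1.16 to 1.26 for H4. Without its member with the most counts, the D2 sum was 0.972 times that of B6 for H1 and 0.832 times for H2A. The replicate numbers are shared only as labels. For each library, the deviation of log2 CPM from its strain's mean was taken for every tested gene. Across genes, these deviations had correlations of 0.135, 0.066 and -0.03 between same-numbered D2 and B6 libraries. With the replicate block 39 members and 5093 genes were called. Depth limits the genes under 1 CPM, and shared sequence limits the 44 members with 50% or more of their words elsewhere.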
